A study of Oryza sativa with 10 samples.

Results

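In the rice data described here, 46 probe sets gave a strong signal in embryo, leaf, root and whole seedling and a low one in endosperm. A probe set is a group of short probes on the array that together read 1 transcript. The 46 were chosen from the 57258 probe sets that are not controls, by a deposited signal of at least 1000 on all 8 embryo, leaf, root and seedling arrays and under 200 on both endosperm arrays. They are called the members below. Of the members, 40 were paired with 1 gene in the platform annotation, and these covered 39 genes, because LOC4326757 was read by 2 probe sets. Only 8 of the genes carried a readable symbol (salT, SWEET1A, RBOHB, G1L2, IAA31, FOR1, PSY2 and ARF9), and 31 had a gene ID alone. The remaining 6 members had no gene in that annotation and are described without a name. Without the probe sets marked as open to cross-hybridisation, 39 of the 46 remained. Those so marked include LOC4339579, LOC4348794 and both probe sets of LOC4326757.

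Endosperm is the nourishing tissue of the cereal seed. It grows beside the embryo after a separate fertilisation event, fills with starch and storage proteins, and forms no lasting organs of the plant. The embryo, by contrast, carries the first shoot and root, whose tissues go on into the seedling.

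The plants were Oryza sativa of the japonica cultivar Zhonghua 11, grown in a phytotron at 28 °C by day and 22 °C by night, with no other treatment. Endosperm and embryo came from seeds at 6 days after anthesis (flowering), leaf and root from seedlings of 7 days, and the whole seedling was taken at 10 days. Total RNA of 2 biological replicates per tissue was biotin-labelled and hybridised to the Affymetrix GeneChip Rice Genome array, 1 array each, which makes 10 arrays. The stated design was a profile of these 5 tissues. With 2 arrays per tissue, precision is limited by the number of arrays.

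The endosperm and embryo samples carried their own markers. The 7 matched endosperm markers (storage proteins, starch enzymes and NF-YB1) summed to a signal of 293122 and 220910 on the endosperm arrays, against 28596 and 34058 on the embryo arrays and 412 to 3838 on the others. The 5 embryo markers summed to 1525 and 2101 in endosperm, against 67871 and 58706 in embryo, and OSH1, a shoot meristem gene, was at 5.51 and 3.26 on the endosperm arrays. Markers of green cells (4 genes) summed to 3780 and 25960 on endosperm arrays 1 and 2, against 1530 and 1877 in embryo and 6277 to 70690 on the leaf, root and seedling arrays. Root arrays 1 and 2 also differed, with sums of 18843 and 6277 and CAB2R at 15512 and 3976. Most of the second endosperm value was CAB2R, a chlorophyll-binding protein, at 3028 and 24306 on endosperm arrays 1 and 2. Endosperm array 1 also stood apart in the 3′ to 5′ ratio of 2 added control transcripts, at 143 for dap and 945 for thr, where no other array exceeded 7.23 and 8.85. The rice Gapdh 3′ to 5′ ratio was 4.71 and 5.28 in endosperm, 1.65 and 1.82 in embryo, 26.3 and 29.1 in leaf, 2.04 and 24.01 in root, and 9.45 and 11.3 in seedling. Replicate arrays correlated across all probe sets at r = 0.920 in endosperm and 0.942 in root, and at 0.966 to 0.980 in the other tissues.

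The low endosperm signal is the rule itself, so it is described here and not tested. The members' median signal was 81.4 on endosperm array 1 (range 2.39 to 182) and 119.7 on endosperm array 2 (range 9.87 to 199.98). On the other arrays the members' medians lay between 2119 and 2980.1. For each member, the lowest of the 8 other arrays was 5.74 to 62.3 times the highest endosperm array, with a median of 11.7. A member without a gene name had the widest such gap, with 2.39 and 25.5 in endosperm against 1587 to 2574 on the other arrays. A signal under 200 is not the same as no transcript: 65.6% of all probe sets were under 200 on both endosperm arrays, and the members' signals sat at a median percentile of 59.98 and 57.1 on those arrays. On the 8 other arrays no member lay below percentile 82.8. In whole tissue samples, fewer cells that make a transcript and less of it per cell cannot be told apart.

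Transcripts with this pattern were few beside those that endosperm shared with the rest of the plant. In all, 4894 probe sets (8.55% of the array without controls) reached 1000 on all 8 arrays outside endosperm. The members were 0.940% of these, while 4066 (83.1%) also reached 1000 on both endosperm arrays. The same limits turned to the other tissues picked 6 probe sets low in embryo alone and 9 low in root alone, and none low in leaf alone or in the seedling alone. The seedling holds leaf and root, so those 3 tissues are not separate in this count.

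At the edges of the rule, members shaded into transcripts just outside it. The highest endosperm signal among members was that of ARF9, with 182 and 199.98 on the endosperm arrays. Next came LOC4348794, with 149 and 195. Just outside stood LOC4326367, with 122 and 201, and LOC4332399, with 209 and 183. At the lower limit of the other arrays, a member without a gene name was inside at 1009.6 on its lowest array and LOC4332321 outside at 987. How far the choice rested on each array was read by leaving it out: without endosperm array 1 the rule picked 48 probe sets, of which 46 were also under 200 on it, and all 48 were under 1000. Without endosperm array 2 it picked 122, of which 46 (37.7%) were under 200 on that array and 101 under 1000. For 76 probe sets array 1 alone was under 200, and for 2 array 2 alone was, so the count of 46 turned on endosperm array 2. The green-cell markers and the added control transcripts also differed between these 2 arrays, and their part in the count was not tested.

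Auxin response was represented by IAA31 and ARF9. Aux/IAA proteins such as IAA31 repress auxin-responsive genes until auxin triggers their breakdown, and auxin response factors such as ARF9 bind the promoters of those genes. IAA31 had 60.9 and 59.9 in endosperm, 2814 and 5267 in embryo, 1094 and 1419 in leaf, 5214 and 4753 in root, and 1708 and 1318 in seedling. It was high in embryo and root and lower in leaf and seedling, where both arrays lay under every embryo and root array. The embryo minus leaf difference was 1.61 ± 0.33 on the log2 scale (SE, adjusted p = 0.00273), and leaf minus root was -1.98 ± 0.33 (adjusted p = 0.00228). ARF9 had 182 and 199.98 in endosperm, 1742 and 1961 in embryo, 2310.4 and 1937 in leaf, 2343 and 2989 in root, and 1541 and 1624 in seedling. These 8 values lay close together, and none of the 4 comparisons among the tissues outside endosperm passed for ARF9 (largest difference -0.58 ± 0.22 in seedling minus the mean of leaf and root, adjusted p = 0.153).

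G1L2 belongs to the ALOG family of plant nuclear proteins, whose founding rice member G1 shapes the sterile lemma of the spikelet. Its signal was 25.2 and 32.7 in endosperm, 5855 and 5056 in embryo, 2018 and 1563 in leaf, 2987 and 2039 in root, and 2950.4 and 2117 in seedling. Both embryo arrays stood above all 6 vegetative ones. G1L2 was higher in embryo than in leaf by 1.61 ± 0.30 (log2, adjusted p = 0.00174) and than in root by 1.14 ± 0.30 (adjusted p = 0.0137). The call against root was lost without embryo 1 (1.03, adjusted p = 0.103), without embryo 2 (1.24, adjusted p = 0.0529) and without root 2 (0.86, adjusted p = 0.0588).

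PSY2 encodes a phytoene synthase, the enzyme of the first committed step of carotenoid synthesis. It gave 105 and 164 in endosperm, 2119 and 2229 in embryo, 2978 and 2300.4 in leaf, 1307 and 1651 in root, and 1932 and 3612 in seedling. Root was lowest outside endosperm, with no overlap with embryo or leaf, but leaf minus root (0.83 ± 0.35, adjusted p = 0.123) and embryo minus root (0.56 ± 0.35, adjusted p = 0.239) did not pass. RBOHB is an NADPH oxidase of the plasma membrane, a family that makes superoxide in development and defence. RBOHB read 114 and 14.01 in endosperm, 2260.3 and 2574 in embryo, 5444 and 4261 in leaf, 2774 and 1825 in root, and 2056 and 3684 in seedling. Leaf was highest on both arrays, yet embryo minus leaf (-0.99 ± 0.58, adjusted p = 0.184) and leaf minus root (1.09 ± 0.58, adjusted p = 0.215) did not pass.

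SWEET1A is a member of the SWEET family of sugar transporters. On its arrays the signal was 142 and 149.7 in endosperm, 5553 and 4828 in embryo, 3959 and 4428 in leaf, 5314 and 1597 in root, and 1289 and 1766 in seedling. The 2 root arrays were far apart, so root overlapped both embryo and seedling. No comparison passed for SWEET1A, the largest being seedling minus the mean of leaf and root at -1.20 ± 0.39 (adjusted p = 0.101). FOR1, also named PGIP-1, is a leucine-rich repeat protein of the kind that inhibits fungal polygalacturonases. FOR1 gave 58.2 and 160.4 in endosperm, 1468 and 1657 in embryo, 3087 and 2867 in leaf, 2973 and 2277 in root, and 4294 and 3354 in seedling. Embryo was lowest of the 4 tissues without overlap, but embryo minus leaf (-0.92 ± 0.38) had an adjusted p of 0.0700.

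The gene salT encodes a mannose-binding lectin first known as a salt-induced protein of rice. It was the member with the highest mean signal outside endosperm and the widest range there, with 139.9 and 113.9 in endosperm, 1245 and 1700.4 in embryo, 6565 and 9755 in leaf, 17513 and 26552 in root, and 25651 and 20088 in seedling. On this probe set embryo, leaf and root formed 3 steps with no overlap, and seedling overlapped root. On a second salT probe set, given below, embryo and leaf overlapped. Embryo was lower than leaf by a log2 difference of -2.45 ± 0.30 (adjusted p = 0.000129) and lower than root by -3.87 ± 0.30 (adjusted p = 6.86e-06). Leaf was lower than root by -1.43 ± 0.30 (adjusted p = 0.00744), which was not called without leaf 1 (-1.14, adjusted p = 0.0918).

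The comparisons among embryo, leaf, root and seedling did not enter the rule beyond its floor of 1000, and they were tested with limma over the 30014 probe sets with enough signal, including all 46 members. A call needed an adjusted p under 0.05 and a difference of at least 2-fold. All 10 arrays shared 1 estimate of the spread per probe set. A gap between the 2 endosperm arrays of a member, at signals under 200, thus entered the SE of these comparisons too. In 21 members (45.7%) at least 1 of the 4 comparisons was called, against 54.9% of all tested probe sets and 39% of the 4894 at 1000 or more on the 8 arrays, and in 25 members none was. In 17 members the highest and lowest of the 4 tissue means were less than 2-fold apart, and in 8 they were at least 4-fold apart. Embryo was the lowest of the 4 tissues in 23 members, seedling in 12, leaf in 6 and root in 5. The highest was more even, with leaf in 13, root in 12, seedling in 11 and embryo in 10. The tissue ranges and these counts were taken for members only. They have no share over other probe sets beside them and are a description.

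Between embryo and leaf, 7 members were higher and 8 lower in embryo (15.2% and 17.4%), against a background of 18.3% higher and 23.5% lower over all tested probe sets. Among the 4894 probe sets at 1000 or more on the 8 arrays, 21% were higher and 8.87% lower. The members' median log2 difference was -0.31, against -0.08 over all tested probe sets and 0.18 over those 4894. The members lower in embryo included LOC4333209, with 2421 and 2088 in embryo and 10947 and 10405 in leaf (-2.24 ± 0.46, adjusted p = 0.00289). LOC4339579 had 1211 and 1636 in embryo and 5233 and 5087 in leaf (-1.86 ± 0.32, adjusted p = 0.00102). The other 6 were salT, LOC4325479 (-1.57), LOC4325688 (-1.56), LOC4334617 (-1.40), LOC4351413 (-1.38) and a member without a gene name (-1.11). The members higher in embryo were led by LOC4342941, with 4241 and 6562 in embryo and 1199 and 1373 in leaf (2.03 ± 0.37, adjusted p = 0.00145). With it came IAA31, G1L2, LOC4347299 (1.51), LOC4350949 (1.37), another member without a gene name (1.20) and LOC4346360 (1.12). The count of 7 fell to 4 without embryo 1, leaf 1 or leaf 2. LOC4347299 was not called when any 1 embryo, leaf or seedling array was left out (adjusted p up to 0.156). LOC4346360 missed the threshold without any 1 embryo or leaf array (up to 0.0811), and the unnamed member higher in embryo without embryo 1, leaf 1 or leaf 2 (up to 0.143). LOC4325688 was likewise lost without any 1 embryo or leaf array (up to 0.0794), and the unnamed member lower in embryo without any 1 embryo, leaf or seedling array (up to 0.2004).

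Between embryo and root, 3 members were higher and 9 lower in embryo (6.52% and 19.6%), against 15.4% higher and 18.9% lower over all tested probe sets. Of the 4894 probe sets high on the 8 arrays, 12.9% were higher and 7.97% lower. LOC4325688 gave 1449 and 1261 in embryo and 5225 and 7752 in root (-2.22 ± 0.43, adjusted p = 0.00255). LOC4339579, whose probe set is marked as open to cross-hybridisation, reached 6603 and 12559 in root (-2.68 ± 0.32, adjusted p = 0.000119). It was thus lower in embryo than in both organs. The same held for salT, LOC4325688, LOC4325479 (-1.22 against root) and LOC4351413 (-1.09 against root), 5 members in all (10.9%), against 13.1% of all tested probe sets and 4.66% of the 4894. This count was 3 without embryo 1 and 2 (salT and LOC4339579) without embryo 2. Against root, LOC4351413 missed the threshold without embryo 1, embryo 2 or root 2 (adjusted p = 0.0520, 0.0816 and 0.0566), and LOC4325479 without embryo 2 (0.0685). LOC4344263 (-1.65), LOC4352567 (-1.43), a member without a gene name (-1.37) and LOC4342941 (-1.23) were lower in embryo than in root without being called lower than in leaf. The unnamed one, marked as open to cross-hybridisation, had 1084 and 1223 in embryo, under the 1416 and 1286 of leaf (-0.23, not called). LOC4347299 had 8154 and 6909 in embryo, 2616 and 2621 in leaf and 1205 and 2981 in root (1.98 ± 0.51 against root, adjusted p = 0.012). LOC4350949 had 4607 and 4037 in embryo, 1666 and 1663 in leaf and 1357 and 1199 in root (1.74 ± 0.28 against root, adjusted p = 0.000754). These 2 and G1L2 were higher in embryo than in both organs (6.52%, against 10.6% of all tested probe sets and 9.79% of the 4894), and 1 was without embryo 1 or embryo 2. Counting both embryo comparisons in either direction, 9 members (19.6%) were called in both, 9 (19.6%) in 1 and 28 in neither. Of all tested probe sets 24.3% were called in both and 27.5% in 1, and of the 4894 these shares were 14.5% and 21.8%. The 9 called in both were 4 without embryo 1 or embryo 2. LOC4342941, called in both, was above leaf and below root. The 3 higher calls were 1 without embryo 1 or embryo 2 and 5 without root 1, and the 9 lower calls were 5 without embryo 2. LOC4342941 against root was -0.91 (adjusted p = 0.194) without embryo 1 and -0.65 (adjusted p = 0.129) without root 1. LOC4352567 had an adjusted p of 0.0557 without embryo 2, and the unnamed member up to 0.0901 without embryo 1, embryo 2 or root 2. LOC4347299 against root had adjusted p of 0.0811, 0.0508 and 0.0812 without embryo 1, embryo 2 and root 1.

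Between leaf and root, 1 member was higher and 7 lower in leaf (2.17% and 15.2%), against 10.9% higher and 8.87% lower over all tested probe sets. Of the 4894 probe sets high on the 8 arrays, 3.23% were higher and 5.91% lower. LOC4342941 had 1199 and 1373 in leaf and 18399 and 8309 in root, a log2 difference of -3.25 ± 0.37 (adjusted p = 0.000342). LOC4344263 followed its direction, with 2114 and 2751 in leaf and 10784 and 6537 in root (-1.79 ± 0.35, adjusted p = 0.00526). IAA31, salT, LOC4346360 (-1.53), LOC4352567 (-1.18) and a member without a gene name (-1.14, the same one that was lower in embryo than in root) were the others lower in leaf. LOC4333209 was the 1 member higher in leaf, with 10947 and 10405 in leaf and 5124 and 1607 in root (1.89 ± 0.46, adjusted p = 0.0158). The members' median difference was 0.15, on the other side of 0 from the balance of the calls. The root arrays were at least 2-fold apart in 10 members (21.7%, against 8.95% of the 4894), and the leaf arrays in 1. The count of 7 was 2 without leaf 1, and the count of 1 was 0 without leaf 1 or leaf 2, 5 without root 1, and 2 without either endosperm array. LOC4333209 had an adjusted p of 0.0961 without leaf 1 and 0.0828 without leaf 2. LOC4352567 was lost without leaf 1, leaf 2 or root 2 (up to 0.142), LOC4344263 and LOC4346360 without leaf 1 (0.0619 and 0.0575), and the unnamed member missed the threshold without any 1 of the embryo, leaf, root or seedling arrays.

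The whole seedling was set against the mean of the log2 values of leaf and root, which were separate samples taken 3 days younger. A mean of log2 values is not the level of a leaf and root mixture. Here 2 members were higher and 3 lower in seedling (4.35% and 6.52%), against 4.1% higher and 2.31% lower over all tested probe sets. Of the 4894 probe sets high on the 8 arrays, 1.55% were higher and 1.63% lower. Both probe sets of LOC4326757 were lower in seedling. The first had 2255 and 3202 in seedling, 14281 and 6561 in leaf and 6275 and 10356 in root (-1.71 ± 0.38, adjusted p = 0.0259). The second gave 1120.1 and 1632 in seedling, 8742 and 6249 in leaf and 3588 and 9858 in root (-2.28 ± 0.39, adjusted p = 0.00864). These 2 probe sets read the same gene, are marked as open to cross-hybridisation, and count as 1 observation. LOC4352567 had 1224 and 1079 in seedling, 1976 and 2029.97 in leaf and 3962 and 5253 in root (-1.38 ± 0.27, adjusted p = 0.015). LOC4334617 stood higher, with 10808 and 11160.5 in seedling, 6976 and 6679 in leaf and 5313 and 2707 in root (1.11 ± 0.27, adjusted p = 0.0392). LOC4346981 was also higher, at 4062 and 3071 in seedling, 1627 and 1959.7 in leaf and 1737 and 1494 in root (1.05 ± 0.26, adjusted p = 0.0373). The 2 higher calls were lost without any 1 of the embryo, leaf or seedling arrays or without root 2. The 3 lower calls were 0 without seedling 1 or seedling 2, 1 without leaf 1 and 6 without root 2.

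Some members with a high mean outside endosperm had highest and lowest tissue means less than 2-fold apart there. LOC4334913 had 3.37 and 69.0 in endosperm, 3407 and 2419 in embryo, 5553 and 5615 in leaf, 6171 and 3496 in root, and 4498 and 5889 in seedling. A member without a gene name had 114 and 42.05 in endosperm and between 2428 and 5745 on the other 8 arrays. Neither was called in any of the 4 comparisons. For LOC4334913 both embryo arrays lay below both leaf arrays (-0.96 ± 0.57, adjusted p = 0.195), and the gap between its endosperm arrays entered that SE. The endosperm arrays were at least 2-fold apart in 16 members (34.8%), against 10.7% of the 4894 probe sets. These shares are not at like signal: the rule holds members under 200 in endosperm, while 83.1% of the 4894 reached 1000 there. Array 2 was the higher in 33 of the 46, a share not counted over other probe sets. Of all probe sets that are not controls, 71.9% were under 200 on endosperm array 1 and 66.9% on array 2. The part of the difference between these 2 arrays in the members' spread was not tested.

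A second look at the endosperm level came from probe sets that the rule did not pick but that read the same genes. There were 7 of these for 6 member genes, and all 7 were under 200 on both endosperm arrays, as were 65.6% of all probe sets. The second salT probe set gave 46.8 and 50.97 in endosperm, 732 and 1064 in embryo, 962 and 1734 in leaf, 14802 and 13326 in root, and 14061 and 9810.5 in seedling. It is marked as open to cross-hybridisation, and its embryo and leaf arrays overlapped, unlike those of the member. Both other LOC4334913 probe sets were lower in endosperm than on all other arrays as well, but embryo was also low on them. The first had 3.36 and 41.6 in endosperm, 92.7 and 79.8 in embryo, and 396 to 694 in leaf, root and seedling. The other had 16 and 12.9 in endosperm, 21.2 and 32.8 in embryo, and 138 to 429 in leaf, root and seedling. On the member probe set embryo was at 3407 and 2419. For LOC4346360 and LOC4326757 the endosperm range overlapped that of the other tissues. The second probe sets of SWEET1A and IAA31 were under 200 on all 10 arrays and showed no tissue pattern. In all, 3 of the 7 had both endosperm arrays below every other array, against 9.46% of all probe sets; with 7 probe sets this is a description.

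Members did not lie side by side in the genome. Each of the 39 genes had a place in the gene order of a rice assembly, no 2 members were neighbours, and the closest pair was 37 genes apart. Of the 54 direct neighbours with a probe set, none met the rule, which picked 0.0803% of the array without controls. Neighbours with both endosperm arrays below all 8 others numbered 11 (20.4%), against 19.1% of all 17905 genes with a probe set. One of these neighbours was IAA30, next to IAA31, with a mean signal of 390.4 in endosperm against 6545 to 7829 in the other tissues.

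Families of the named members were read next, leaving out the members themselves and taking 1 probe set per gene. This was the probe set with the highest mean over the 10 arrays, while the background of all tested probe sets can hold several per gene. Over all tested probe sets, 18.5% were higher and 29.7% lower in endosperm than in the mean of the other 4 tissues, with a median log2 difference of -0.23. Here and in the lists below, a gene called against this mean need not be below, or above, each of the 4 tissues. Of 24 tested Aux/IAA genes, 14 were called lower in endosperm and 0 higher in limma's test (adjusted p under 0.05 and at least 2-fold), with a median of -1.71. At an unadjusted p under 0.05 with no fold minimum, 18 were lower and 1 higher. This looser count, here and below, was not made over all probe sets. IAA10 (0.71, adjusted p = 0.0184) was on the higher side and under 2-fold. IAA3 averaged 727.6 in endosperm against 11974 to 16265 in the other tissues (-4.38 ± 0.27, adjusted p = 1.08e-06), and IAA30 differed by -4.31 ± 0.32 (adjusted p = 3.45e-06). Auxin response factors went both ways, with 5 of 16 lower and 4 higher. ARF15 averaged 176 in endosperm against 1661 to 4229 elsewhere (-3.99 ± 0.33, adjusted p = 6.65e-06), while ARF14 averaged 4472 in endosperm against 369.9 to 2061 elsewhere (2.70 ± 0.35, adjusted p = 0.00012).

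The other phytoene synthases were also lower in endosperm. OsPSY1 averaged 91.2 in endosperm, 786 in embryo, 4183 in leaf, 670.1 in root and 3044 in seedling (-4.08 ± 0.33, adjusted p = 5.78e-06). OsPSY3 averaged 47.1 in endosperm but 39.05 in embryo, so its difference of -2.82 ± 0.50 (adjusted p = 0.000884) came from leaf, root and seedling, with means of 1049, 778 and 322. ALOG genes did not share 1 direction. G1L1 was lower in endosperm, at a mean of 43.2 against 241 to 1082 elsewhere (-3.13 ± 0.53, adjusted p = 0.000672). G1L6 was lower too (-1.39 ± 0.49, adjusted p = 0.034), and G1L9 was higher, at 2164 in endosperm against 82.6 to 655 elsewhere (3.39 ± 0.34, adjusted p = 2.39e-05). SWEET transporters were divided as well, with 4 of 9 lower and 3 higher. OsSWEET4 averaged 689.5 in endosperm (-3.47), whereas OsSWEET11, a sucrose transporter of the developing caryopsis, averaged 24996 in endosperm against 95.1 to 2247 elsewhere (4.96 ± 0.20, adjusted p = 1.02e-07).

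Wider pathway lists, chosen by gene symbol, were read in endosperm against the mean of the other 4 tissues. They leave out the members, and 31 of the 39 member genes have no symbol, so the lists do not describe the members. In the 13 lists, 389 genes other than members were tested once each, of which 169 were lower and 55 higher in endosperm, with a median log2 difference of -0.82. Over all tested probe sets 29.7% were lower and 18.5% higher, with a median of -0.23, and this background holds for each list below. Homeobox factors, which include meristem genes, had 26 of 45 lower and 3 higher (median -1.64), with OSH1 at a mean of 4.39 in endosperm and 1598 in embryo (-4.72 ± 0.31, adjusted p = 1.73e-06). Growth-regulating factors had 8 of 10 called lower and 0 higher in limma's test, and the same counts at an unadjusted p under 0.05 with no fold minimum. Their median was -1.61, GRF1 differing by -3.34 ± 0.21. For chlorophyll and photosynthesis, 10 of 17 were called lower and 0 higher in limma's test (median -2.42). At an unadjusted p under 0.05 with no fold minimum these counts were 11 and 1. GLK2, a regulator of chloroplast development, was at -3.25 ± 0.30. GLK2 averaged 91.7 in endosperm and 76.9 in root, so its endosperm level was not below that of root. Embryo was below endosperm for some genes of this list that were not called, such as CAB2R (932 and 13667) and LHCP (76.3 and 1559). For others, such as CHLP (4294 in embryo and 354 in endosperm), it was above. The 2 endosperm arrays were far apart for CAB2R, at 3028 and 24306. Cell wall genes had 26 of 52 lower and 5 higher (median -1.05), with the expansin EXPB17 at -4.61 ± 0.29 and the expansin EXP2 at 2.50 ± 0.34.

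Cell cycle and DNA replication genes had 24 of 60 lower and 6 higher (median -0.84). The cyclin CYCB2 of gene ID 4342121 averaged 21.9 in endosperm against 995 to 3919 elsewhere (-5.90 ± 0.45, adjusted p = 4.13e-06), and CYCD5-2 was higher at 2.22 ± 0.25. Aquaporins had 13 of 23 lower and 5 higher (median -1.46), from OsPIP2;6 at -5.20 ± 0.17 to OsTIP3 at 6.55 ± 0.26. OsTIP3 averaged 45779 in endosperm, 30438 in embryo and 57.2 to 302 in leaf, root and seedling. Some aquaporins called lower were lower still in embryo, such as OsTIP2, with means of 49.7 in endosperm and 7.05 in embryo. Auxin transport had 3 of 5 lower and 1 higher (median -1.44), and cytokinin and gibberellin genes had 14 of 30 lower and 4 higher (median -0.65), among them the cytokinin-activating LOGL3 at -4.43 ± 0.24. Aux/IAA and auxin response factors taken as 1 list had 19 of 40 lower and 4 higher (median -1.04).

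In 4 lists the median difference was above that of all tested probe sets in the main scaling. Sucrose and hexose genes had 12 of 35 lower and 10 higher (median -0.09), with the sucrose synthases OsSUS1 at -4.28 ± 0.18 and OsSUS3 at 7.42 ± 0.27. The cytoskeleton list had 7 of 22 lower and 5 higher (median -0.05, but 5 lower, 1 higher and a median of -0.41 with quantile scaling, below that of all tested probe sets), with OsRac7 at -4.23 ± 0.36 and the tubulin TUB7 at 2.23 ± 0.30. Matched on symbols that include RAC, this list took in OsRac7, a small GTPase, so its counts are not of tubulin and actin genes alone. Small RNA genes had 7 of 25 lower and 3 higher (median -0.21, but 0.12 with quantile scaling), with AGO1D at -3.88 ± 0.35 and DRB3 at 3.09 ± 0.33. Ribosomal proteins had 0 of 25 called lower and 9 higher in limma's test (median 0.86), led by rps20 at 1.84 ± 0.15. At an unadjusted p under 0.05 with no fold minimum these counts were 1 and 20. With each array scaled to its median, 2 ribosomal protein genes were lower and 1 higher, with scaling to the added hybridisation controls 4 were lower and 0 higher (median -0.20), and with quantile scaling 0 were lower and 1 higher. The median of all tested probe sets moved to -0.05 with quantile scaling, -0.57 with median scaling and -1.20 with the hybridisation controls. Relative to that median, the ribosomal protein genes lay at 1.09 in the main scaling and at 0.14, 1.08 and 0.997 in the 3 others, above it each time. The Aux/IAA genes lay at -1.48 in the main scaling and at -1.94, -1.48 and -1.44 in the 3 others.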

How the data were processed

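Signals were the linear intensity values deposited by the authors, made with MAS5 per the submitters' processing notes (version not given in the sources used here), 1 per probe set and array. The files hold 57381 probe sets, 123 of them controls, and each array's 2% to 98% trimmed mean was 500. Members were chosen on these values. For tests, 16 was added and log2 taken, and probe sets at 100 or more on at least 2 arrays were kept (30014). A limma model with 5 tissue means and eBayes with an intensity trend was fitted to all 10 arrays (limma 3.58.1, R 4.3.3; 5 residual and 5.14 prior degrees of freedom). Adjusted p (Benjamini-Hochberg) is over all tested probe sets, and values after ± are SE. The fit was tested on simulated data. The labels call the replicates biological.

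Genes came from the platform annotation, and symbols, synonyms and gene order from a rice gene table (assembly ASM3414082v1, the array's own build is not given in the sources used here, so no coordinates were used). Members without a gene are described without their probe set IDs. Named were all members with a readable symbol, the 10 other members with the highest means, the largest rises and falls of each comparison, and up to 5 genes per list; members called beyond these, and family members, were named after their values were seen. The members and lists were chosen with earlier results of these data known. Alternatives were other pseudocounts, scalings, filters, variance models, fold limits and array subsets. Detection calls and scanner files were not used here.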

Additional observations from a re-analysis of the deposited data

How the results depend on the processing

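The number of members followed its limits: 46 became 15 with an endosperm limit of 100, 132 with a limit of 400, 220 (all 46 among them) with a floor of 500 outside endosperm and 9 with a floor of 2000. It was 33 with quantile scaling (30 of the 46), 69 with median scaling (45 of the 46) and 153 with scaling to the hybridisation controls (44 of the 46). Without 1 array it ranged from 46 to 122. In leaf minus root the 1 higher call was 2 with quantile scaling, 3 with median scaling, 0 with the hybridisation controls and 0 with a fit of only those tissues, and the 7 lower calls were 4 with median scaling. The 2 higher calls of seedling were 0 with a pseudocount of 1, median scaling, the hybridisation controls, no filter, no trend or the replicate block, and 1 with a fit of only those tissues. For the pathway genes the 55 higher calls were 34 with median scaling and 16 with the hybridisation controls, where the 169 lower calls were 260. The causes were not tested.

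Without 1 array, the ranges were 4 to 7 higher and 6 to 8 lower for embryo minus leaf, 1 to 5 and 5 to 11 for embryo minus root, 0 to 5 and 2 to 8 for leaf minus root, 0 to 2 and 0 to 6 for the seedling, and 48 to 57 and 149 to 195 for the pathway genes. The array left alone in its tissue was then assumed to vary like the others. Of 40 calls of single members, 16 held under all alternatives run and 24 were lost in some; over 840 checks 721 held, 119 missed the threshold and 0 changed direction. Same-numbered replicates shared only a number (correlations of their deviations -0.108 to 0.0962), and the replicate block left 0 higher calls in the seedling comparison and 6 lower calls in leaf minus root. A fit of only the tissues compared is the same fit for the endosperm comparison, which holds all 5. Signals under 200 limit what can be said of endosperm levels.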
